A study of Mus musculus with 27 samples.

Results

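Dorsal skin of C3H mice, an inbred laboratory strain, was treated on its surface with TDM10842, which the submitters describe as a thyroid hormone receptor agonist, and was compared with skin that received nothing. All 9 libraries labelled TDM and all 9 labelled Blank entered the comparison, which makes 18 of the 27 libraries of the series. TDM skin received the compound in its solvent, Vehicle skin the solvent alone, each as 2 applications of 60 µL at 0 and 24 h, and Blank skin no application. The 9 Vehicle libraries are given beside the others because TDM and Blank skin differ in both the compound and its solvent, whose parts cannot be told apart in TDM against Blank alone. The concentration, the ages and the time of collection are not given in the sources used here. It is not stated that the 9 libraries of a group are 9 mice. P-values therefore describe variation among libraries, and some of that variation could be technical.

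Thyroid hormone acts through nuclear receptors, encoded by Thra and Thrb, that sit on DNA and switch target genes when the active hormone binds. Deiodinases make or destroy the active hormone inside the cell, and membrane transporters carry it in. In skin, thyroid hormone is known to affect hair growth, the epidermis and the sebaceous gland. A hair follicle passes through growth, regression and rest, and its growth phase starts with division of hair germ cells, signals of the hedgehog and Wnt families, and the making of new root sheaths and pigment.

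Count totals were 15996657 to 17357395 reads in TDM, 15412332 to 17001952 in Vehicle and 15705220 to 17599066 in Blank libraries. Levels are CPM, the reads of a gene per 1000000 reads of the library after TMM scaling, and 3 values in a row are the lowest, the median and the highest of the 9 libraries of a group. Skin keratins were abundant in every group and the Blank median of Krt14 was 2063 CPM. Among 20 retina markers, checked because the extraction text speaks of retina, the summed level was 12.5 to 18.5 CPM in TDM, 12.7 to 29.0 CPM in Vehicle and 13.1 to 20.9 CPM in Blank libraries, with Crx and Gngt1 at 0 reads. Some libraries stood apart. TDM replicate 5 was the highest TDM library for 980 of the 1996 genes called higher, and Blank replicate 4 was the highest Blank library for 1034 of them. TDM replicate 7 had 9184 CPM of collagen transcripts, against 19830 to 56590 CPM in the other TDM libraries.

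Of 17232 genes tested, 2793 were called at an adjusted p under 0.05 (16.2%), with 1996 higher (11.6%) and 797 lower (4.63%) in TDM than in Blank skin. At least a 2-fold difference was seen for 473 of the genes called higher (2.74% of those tested) and 131 of those called lower (0.76%). The 9 TDM and the 9 Blank values did not overlap at all for 375 genes (2.18%), with TDM higher for 321 (1.86%) and lower for 54 (0.313%). That number was 798 without Blank replicate 4 and 650 without TDM replicate 9. Genes called higher made up 71.5% of the called genes, against 59.8% in a fit of the TDM and Blank libraries alone and 55.1% with limma voom. The median log2 fold change of all tested genes was -0.02. With the solvent libraries as the comparison, 4090 genes (23.7%) differed between TDM and Vehicle skin, and 475 (2.76%) between Vehicle and Blank skin. These comparisons share libraries. The first 2 principal components held 32.1% and 24.5% of the variance, and on the second the TDM libraries scored 14.9 to 38.9, the Vehicle libraries -27.5 to 24.1 and the Blank libraries -25.7 to 4.04. Vehicle replicates 7 and 8 scored 24.1 and 10.7 on the second component, and the other Vehicle libraries -12.7 or lower. The plot of all genes shows more and larger differences above 0 than below it.

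**Figure D1:**
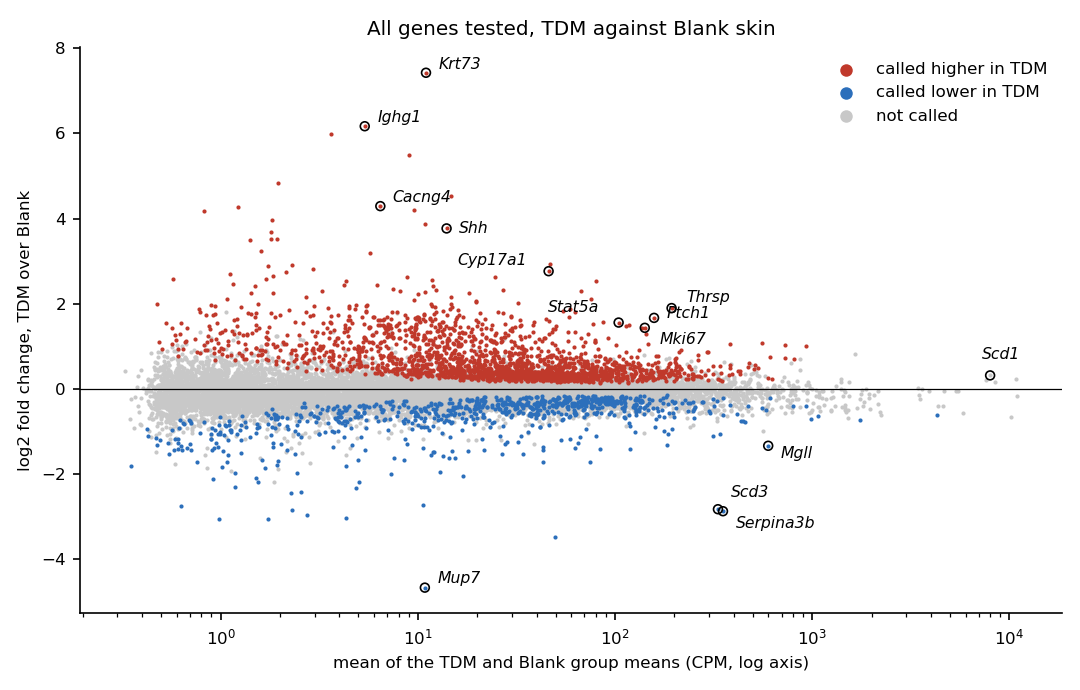
Each point is 1 of 17232 genes, placed by the mean of its TDM and Blank group means (CPM, log axis) and its log2 fold change of TDM over Blank. The 1996 genes called higher are red, the 797 called lower blue and the others grey, and circled genes are described in the text.

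The genes with the smallest p-values held a transcription factor, a protease inhibitor and several lipid enzymes. The smallest p of all belonged to C130079G13Rik (chr3:59925214-59937949, GRCm38), a protein-coding gene with a clone name that was singled out after its values were seen. It had 4.05, 9.15 and 11.98 CPM in TDM skin, 56.6, 92.3 and 146 CPM in Vehicle skin and 42.95, 74.3 and 156 CPM in Blank skin (log2 fold change -3.49 ± 0.24 SE, adjusted p = 6.37e-10). No TDM value reached the Blank range, and the Vehicle and Blank values covered much the same range. Stat5a (chr11:100859351-100885169), a transcription factor activated by prolactin, growth hormone and cytokine receptors, stood at 113, 139 and 239 CPM in TDM skin, 44.96, 54.2 and 73.4 CPM in Vehicle skin and 46.4, 52.02 and 58.9 CPM in Blank skin. Every TDM library lay above every Vehicle and Blank library (log2 fold change 1.56 ± 0.12 SE, adjusted p = 4.84e-09, and log2 fold change 1.43 ± 0.12 SE, adjusted p = 1.77e-08 over Vehicle). The promoter of Stat5a in RefSeq (GRCm38.p6), from 250 bases before to 30 after its annotated start, is printed for this gene because it had the smallest p among genes called higher with a gene name. It spans chr11:100859406-100859685 on the plus strand, and capitals mark AGGTCA, the half-site that nuclear receptors bind. The whole stretch lies inside the gene as placed above, because the RefSeq start lies downstream of the gene start used there. On either strand, AGGTCA occurs in 12.4% of the 12170 promoters of tested genes, so the match is a description only.
Stat5a: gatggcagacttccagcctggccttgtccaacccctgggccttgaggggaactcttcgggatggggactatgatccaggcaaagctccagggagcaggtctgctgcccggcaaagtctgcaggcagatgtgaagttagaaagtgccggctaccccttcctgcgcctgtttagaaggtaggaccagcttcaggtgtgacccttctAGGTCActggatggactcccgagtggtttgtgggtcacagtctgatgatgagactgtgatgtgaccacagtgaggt

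Serpina3b (chr12:104127996-104139545), a member of a cluster of serine protease inhibitors, had 49.8, 81.1 and 141 CPM in TDM skin, 344, 648 and 1068 CPM in Vehicle skin and 295, 656 and 791 CPM in Blank skin (log2 fold change -2.88 ± 0.23 SE, adjusted p = 4.84e-09). Its TDM range lay below both other ranges. Of the 10 tested genes of the Serpina3 cluster, Serpina3b alone was called in the fit of all 27 libraries, and DESeq2 also called 1. Other settings called more of them lower, 4 with TDM and Blank libraries alone, 3 with limma voom and 2 with the replicate block. Over Vehicle 2 were lower. The cluster had a median of -0.44 on the log2 scale for TDM over Blank. Serpina3j is a close copy that could share reads with Serpina3b. It had a median of 334.5 CPM in TDM and 644.6 CPM in Blank skin (log2 fold change -0.46, adjusted p = 0.206). With limma voom Serpina3j passed (log2 fold change -0.63, adjusted p = 0.0153). Cacng4 (chr11:107732357-107794557), a regulatory gamma subunit of calcium channels and glutamate receptors, had 5.24, 10.6 and 23.6 CPM in TDM skin, 0.323, 0.841 and 2.07 CPM in Vehicle skin and 0.244, 0.529 and 1.14 CPM in Blank skin (log2 fold change 4.29 ± 0.36 SE, adjusted p = 9.06e-09). Even the lowest TDM library exceeded the highest Vehicle library. Ighg1, the constant region of an immunoglobulin heavy chain, had 3.60, 7.78 and 20.7 CPM in TDM skin, 0, 0.0688 and 0.323 CPM in Vehicle skin and 0, 0.06 and 0.376 CPM in Blank skin (log2 fold change 6.17 ± 0.52 SE, adjusted p = 1.19e-08). Zero reads were counted in 3 Blank libraries, and the other tested immunoglobulin and plasma cell genes did not pass the test. The light chain Igkc was at a median of 9.29 CPM in TDM and 8.59 CPM in Blank skin (adjusted p = 0.747), and Jchain at 4.40 CPM in TDM and 3.06 CPM in Blank skin (adjusted p = 0.911). Of the 10 tested B cell and immunoglobulin genes, Ighg1 was the one called.

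Klk8, a skin protease also called neuropsin, had 50.8, 73.1 and 92.7 CPM in TDM skin, 9.19, 12.9 and 18.9 CPM in Vehicle skin and 14.8, 26.2 and 40.5 CPM in Blank skin (log2 fold change 1.48 ± 0.16 SE, adjusted p = 1.55e-06). Here the Vehicle values lay mostly below the Blank values (log2 fold change -0.91 ± 0.16 SE, adjusted p = 0.0322 for Vehicle over Blank). Cyp17a1, the enzyme that makes androgen precursors from pregnanes, had 28.8, 57.7 and 170.3 CPM in TDM skin, 10.1, 19.1 and 23.9 CPM in Vehicle skin and 5.02, 10.3 and 19.5 CPM in Blank skin (log2 fold change 2.76 ± 0.33 SE, adjusted p = 7.44e-06). All 9 TDM libraries exceeded all Vehicle and Blank libraries. Letm1, a protein of the inner mitochondrial membrane, moved little but evenly, with 85.2, 94.2 and 111 CPM in TDM skin, against 58.9, 62.7 and 78.1 CPM in Blank skin (log2 fold change 0.54 ± 0.07 SE, adjusted p = 2e-05). Cep126, a protein of the centrosome and cilium base, had 8.51, 11.8 and 23.9 CPM in TDM skin, against 2.88, 4.25 and 5.28 CPM in Blank skin (log2 fold change 1.74 ± 0.21 SE, adjusted p = 7.76e-06). Chodl, a membrane protein of the lectin family, had 11.8, 18.7 and 50.9 CPM in TDM skin, against 4.14, 5.33 and 8.41 CPM in Blank skin (log2 fold change 2.0 ± 0.26 SE, adjusted p = 1.81e-05). Folr1, a folate receptor, had 0.972, 2.996 and 8.15 CPM in TDM skin, against 0, 0.18 and 0.646 CPM in Blank skin (log2 fold change 3.96 ± 0.52 SE, adjusted p = 2e-05). For all of these the TDM and Blank ranges did not overlap. Msantd1 rose with log2 fold change 3.69 (adjusted p = 3.71e-05). Dbh, the enzyme that turns dopamine into noradrenaline, had 0.549, 4.28 and 6.27 CPM in TDM skin, 0, 0.388 and 2.88 CPM in Vehicle skin and 0, 0.122 and 0.404 CPM in Blank skin (log2 fold change 4.83 ± 0.67 SE, adjusted p = 4.06e-05). Its Vehicle level was also above Blank (log2 fold change 2.67 ± 0.71 SE, adjusted p = 0.0422).

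**Figure D2:**
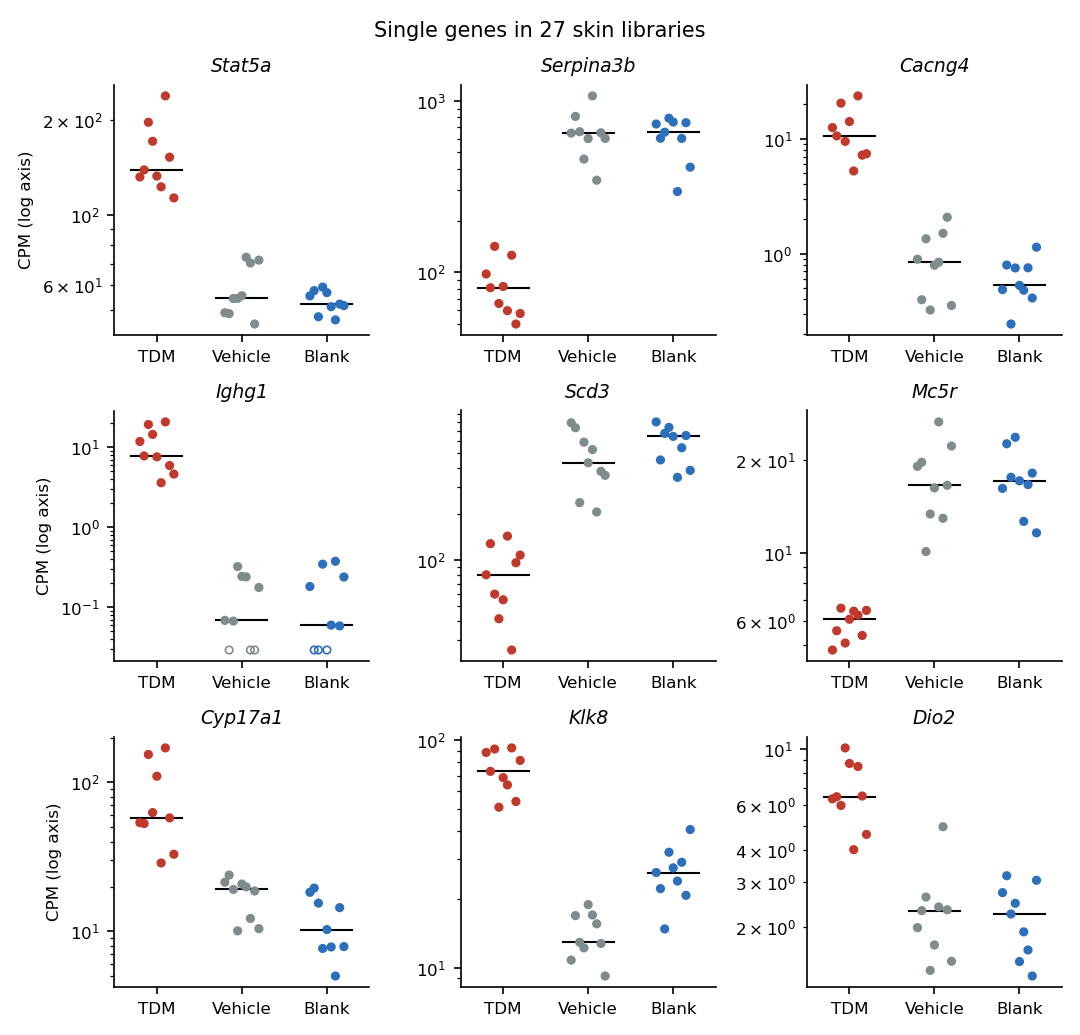
CPM (log axis) of 9 genes in each of the 27 libraries, as points in order of replicate number within TDM, Vehicle and Blank, with a bar at each group's median and open points for libraries with 0 reads. For Stat5a, Cacng4, Ighg1 and Cyp17a1 all TDM points lie above the Blank points, and for Serpina3b, Scd3 and Mc5r all lie below them.

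Genes of thyroid hormone metabolism changed, while those of its receptors did not pass the test. Dio2, the deiodinase that makes the active hormone, had 4.02, 6.48 and 10.1 CPM in TDM skin, 1.36, 2.32 and 4.95 CPM in Vehicle skin and 1.29, 2.25 and 3.18 CPM in Blank skin (log2 fold change 1.61 ± 0.23 SE, adjusted p = 4.47e-05). The lowest TDM library stood above the highest Blank library. Dio1, the deiodinase of liver and kidney, and Dio3, which inactivates the hormone, had 52 and 196 reads over all 27 libraries and were not tested. Slc7a5, a subunit of an amino acid transporter that also carries thyroid hormone, had 46.1, 67.8 and 84.9 CPM in TDM skin, against 26.5, 30.4 and 63.1 CPM in Blank skin (log2 fold change 0.92 ± 0.24 SE, adjusted p = 0.00797). Blank replicate 4 was the highest Blank library. Of the 8 tested genes for deiodinases and hormone transport, 3 rose. The list's median log2 fold change was 0.34, against -0.02 over all genes.

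Thra had 87.1, 90.2 and 101 CPM in TDM skin, against 71.5, 98.1 and 127 CPM in Blank skin (log2 fold change -0.12 ± 0.09 SE, adjusted p = 0.379). Thrb had 25.6, 32.4 and 40.7 CPM in TDM skin, against 29.4, 36.2 and 42.8 CPM in Blank skin (log2 fold change -0.13 ± 0.10 SE, adjusted p = 0.43). Per length, the authors' FPKM of Thra averaged 19.6 ± 1.07 in TDM, 20.4 ± 1.42 in Vehicle and 21.5 ± 4.18 in Blank skin (SD, n = 9 each), and that of Thrb 4.33 ± 0.61 in TDM, 5.22 ± 0.96 in Vehicle and 4.78 ± 0.63 in Blank skin. Thra was thus the more abundant receptor transcript in each group. Of 18 receptor and coregulator genes, edgeR called 0, with 3 above and 0 below Blank at an unadjusted p under 0.05. DESeq2 also called 0, and limma voom called 3 higher and 1 lower.

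Genes known as thyroid hormone targets in other tissues did not stand out by their count of calls. Of 25 tested, 4 rose and 1 fell, shares near the 11.6% and 4.63% of all genes tested, and the median log2 fold change was 0.07. Thrsp, a liver lipogenesis gene also called Spot 14, had 178, 289.9 and 413 CPM in TDM skin, 7.07, 61.5 and 345 CPM in Vehicle skin and 42.7, 61.5 and 138 CPM in Blank skin (log2 fold change 1.90 ± 0.43 SE, adjusted p = 0.00284). Its TDM range lay above the Blank range, but the Vehicle range reached into it. Adrb1, the beta-1 adrenergic receptor and a classic heart target, had 3.05, 4.40 and 6.37 CPM in TDM skin, against 1.52, 2.19 and 3.61 CPM in Blank skin (log2 fold change 0.87 ± 0.21 SE, adjusted p = 0.00391). Ucp2, a mitochondrial carrier, had 549, 637 and 743 CPM in TDM skin, against 468, 545 and 654 CPM in Blank skin (log2 fold change 0.26 ± 0.08 SE, adjusted p = 0.0169). The fourth gene was Stat5a, which stood in the list. Klf9, a transcription factor induced by the hormone in brain, fell in TDM skin with 84.1, 103 and 168 CPM in TDM skin, 81.3, 111 and 152 CPM in Vehicle skin and 101, 155 and 191 CPM in Blank skin (log2 fold change -0.39 ± 0.13 SE, adjusted p = 0.0473). The difference of TDM over Vehicle was near 0 (log2 fold change 0.00 ± 0.13 SE, adjusted p = 1). Its call against Blank was lost in 16 of the 27 fits that left out 1 library. These were the fits without TDM replicate 1, 2, 3, 4, 5, 7 or 8, Vehicle replicate 2, 4 or 5, or Blank replicate 3, 4, 6, 7, 8 or 9. The highest adjusted p, 0.106, was that without Blank replicate 8. Hr, the hairless corepressor and another brain target, had 228, 283 and 366 CPM in TDM skin, against 197, 299 and 445 CPM in Blank skin (adjusted p = 0.702).

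Cell division genes rose almost without exception. All 50 tested genes of mitosis and the spindle rose, with a median log2 fold change of 1.43. Of 46 genes of DNA replication, 44 rose and the other 2 did not pass the test, with a median of 1.02. The medians over Vehicle were 0.85 and 0.74, and those of Vehicle over Blank 0.56 and 0.35. Over Vehicle, 45 mitosis and 35 replication genes were called higher (12% of all tested genes were). For Vehicle over Blank, 0 genes of either list were called. Since skin is a mixture, more dividing cells and more RNA per dividing cell cannot be told apart, here and in the lists that follow, nor can fewer cells and less RNA per cell. The summed CPM of the mitosis list was 1368 to 2863 in TDM libraries, 813.0 to 2469 in Vehicle libraries and 609.7 to 1334 in Blank libraries. The lowest TDM library thus stood just above the highest Blank library, replicate 4. Vehicle replicates 7 and 8 had 1822 and 2469 CPM, and the other Vehicle libraries 813.0 to 1141 CPM.

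Mki67, the antigen used to mark cycling cells, had 129, 213 and 280 CPM in TDM skin, 84.9, 95.6 and 338 CPM in Vehicle skin and 44.5, 69.8 and 135 CPM in Blank skin (log2 fold change 1.43 ± 0.25 SE, adjusted p = 0.000365). The test of TDM against Vehicle did not pass for this gene (log2 fold change 0.61 ± 0.25 SE, adjusted p = 0.0744), and the highest single level was in a Vehicle library. Mybl2, a transcription factor of late cell cycle genes, had 11.2, 16.8 and 22.5 CPM in TDM skin, 3.53, 5.83 and 15.03 CPM in Vehicle skin and 3.47, 4.45 and 8.37 CPM in Blank skin (log2 fold change 1.75 ± 0.24 SE, adjusted p = 4.02e-05). Ndc80 and Nuf2 encode partners in the complex that ties chromosomes to the spindle. Ndc80 had 9.30, 15.4 and 22.2 CPM in TDM skin, against 3.29, 4.28 and 7.08 CPM in Blank skin (log2 fold change 1.65 ± 0.23 SE, adjusted p = 5.03e-05). Nuf2 had 11.6, 18.5 and 24.4 CPM in TDM skin, against 4.28, 5.89 and 10.1 CPM in Blank skin (log2 fold change 1.46 ± 0.22 SE, adjusted p = 7.89e-05). Anln, a scaffold of the contractile ring, had 34.5, 42.5 and 60.2 CPM in TDM skin, against 19.02, 23 and 30.9 CPM in Blank skin (log2 fold change 0.89 ± 0.13 SE, adjusted p = 5.09e-05).

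In the replication list, Ccne1, the cyclin of the G1/S step, had 6.62, 9.95 and 13.4 CPM in TDM skin, against 2.46, 3.17 and 6.46 CPM in Blank skin (log2 fold change 1.44 ± 0.22 SE, adjusted p = 0.000121). Mcm7, a subunit of the helicase that opens DNA for replication, had 63.4, 96.4 and 119.8 CPM in TDM skin, against 38.9, 42.99 and 61.2 CPM in Blank skin (log2 fold change 1.01 ± 0.16 SE, adjusted p = 0.000147). Rrm2, a subunit of ribonucleotide reductase, had 39.01, 59.2 and 83.1 CPM in TDM skin, against 13.8, 16.6 and 33.3 CPM in Blank skin (log2 fold change 1.49 ± 0.24 SE, adjusted p = 0.000147). Tk1, thymidine kinase, had 26.7, 50.1 and 66.8 CPM in TDM skin, against 12.1, 16.3 and 25.2 CPM in Blank skin (log2 fold change 1.45 ± 0.24 SE, adjusted p = 0.000201). In each of these 8 genes after Mki67 the TDM range lay above the Blank range. Of 18 tested histone genes, whose main transcripts lack a poly(A) tail, only Hist3h2ba passed the test, with 0.624, 0.868 and 2.78 CPM in TDM skin, against 0.183, 0.551 and 0.997 CPM in Blank skin (log2 fold change 1.24 ± 0.36 SE, adjusted p = 0.0187). This call was lost without TDM replicate 5 (adjusted p = 0.0606). The other 17 did not pass.

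Promoters of these cell cycle genes are shown because the genes moved together and because their promoters are known to share short motifs. On either strand within 250 bases before and 50 after the start, TTTGAA, the core of the motif of late cell cycle genes, was in 75.6% of the 41 mitosis promoters found in RefSeq, in 13.5% of the 37 replication promoters and in 12.4% of the 12170 promoters of all tested genes. CCAAT, which nuclear factor Y binds, was in 75.6%, 64.9% and 38% of the same promoters. The E2F-type words TTTGGCGC and TTTCGCGC were in 4.88%, 27% and 1.39%. Capitals mark all of these words, and each sequence runs from 250 bases before to 30 after the start, on GRCm38.p6. Ncapd2 and Spc25 were taken, after their values were seen, as the mitosis genes of smallest p that hold both TTTGAA and CCAAT. Ncapd2, a condensin subunit, lies with this stretch at chr6:125191557-125191836 on the minus strand. Spc25, another member of the Ndc80 complex, has it at chr2:69206184-69206463 on the minus strand. Mcm7 has it at chr5:138171854-138172133 on the minus strand, where an E2F-type word and a CCAAT overlap by 1 base after the start, and Rrm2 at chr12:24708004-24708283 on the plus strand.
Ncapd2: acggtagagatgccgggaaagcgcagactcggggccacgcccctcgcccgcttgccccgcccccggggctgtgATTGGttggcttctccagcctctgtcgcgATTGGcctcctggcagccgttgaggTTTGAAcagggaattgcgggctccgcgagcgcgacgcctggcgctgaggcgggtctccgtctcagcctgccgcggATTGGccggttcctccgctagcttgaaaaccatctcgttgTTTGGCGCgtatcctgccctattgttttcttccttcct
Spc25: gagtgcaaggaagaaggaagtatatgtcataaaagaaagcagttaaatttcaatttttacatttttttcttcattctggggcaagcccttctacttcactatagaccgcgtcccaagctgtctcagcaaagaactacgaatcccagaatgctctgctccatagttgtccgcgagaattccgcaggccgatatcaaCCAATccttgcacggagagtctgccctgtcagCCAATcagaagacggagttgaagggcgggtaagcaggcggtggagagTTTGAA
Mcm7: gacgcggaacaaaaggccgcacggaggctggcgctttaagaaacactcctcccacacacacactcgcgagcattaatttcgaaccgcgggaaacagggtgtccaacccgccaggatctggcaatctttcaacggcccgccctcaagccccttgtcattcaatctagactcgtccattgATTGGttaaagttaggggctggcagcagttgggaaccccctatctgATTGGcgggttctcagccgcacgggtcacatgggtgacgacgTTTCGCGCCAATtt
Rrm2: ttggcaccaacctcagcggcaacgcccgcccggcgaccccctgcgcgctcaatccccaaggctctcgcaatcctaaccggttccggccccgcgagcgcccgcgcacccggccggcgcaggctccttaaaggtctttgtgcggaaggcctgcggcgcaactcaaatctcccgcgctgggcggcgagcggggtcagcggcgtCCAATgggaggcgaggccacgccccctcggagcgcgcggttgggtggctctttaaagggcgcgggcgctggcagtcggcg
Ncapd2 had 40.8, 63.9 and 77.8 CPM in TDM skin, against 19.1, 25.3 and 38.6 CPM in Blank skin (log2 fold change 1.19 ± 0.18 SE, adjusted p = 8.31e-05). Spc25 had 10.2, 16.96 and 24.5 CPM in TDM skin, against 2.76, 5.04 and 8.60 CPM in Blank skin (log2 fold change 1.72 ± 0.26 SE, adjusted p = 8.31e-05). Both pairs of ranges were apart.

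**Figure D3:**
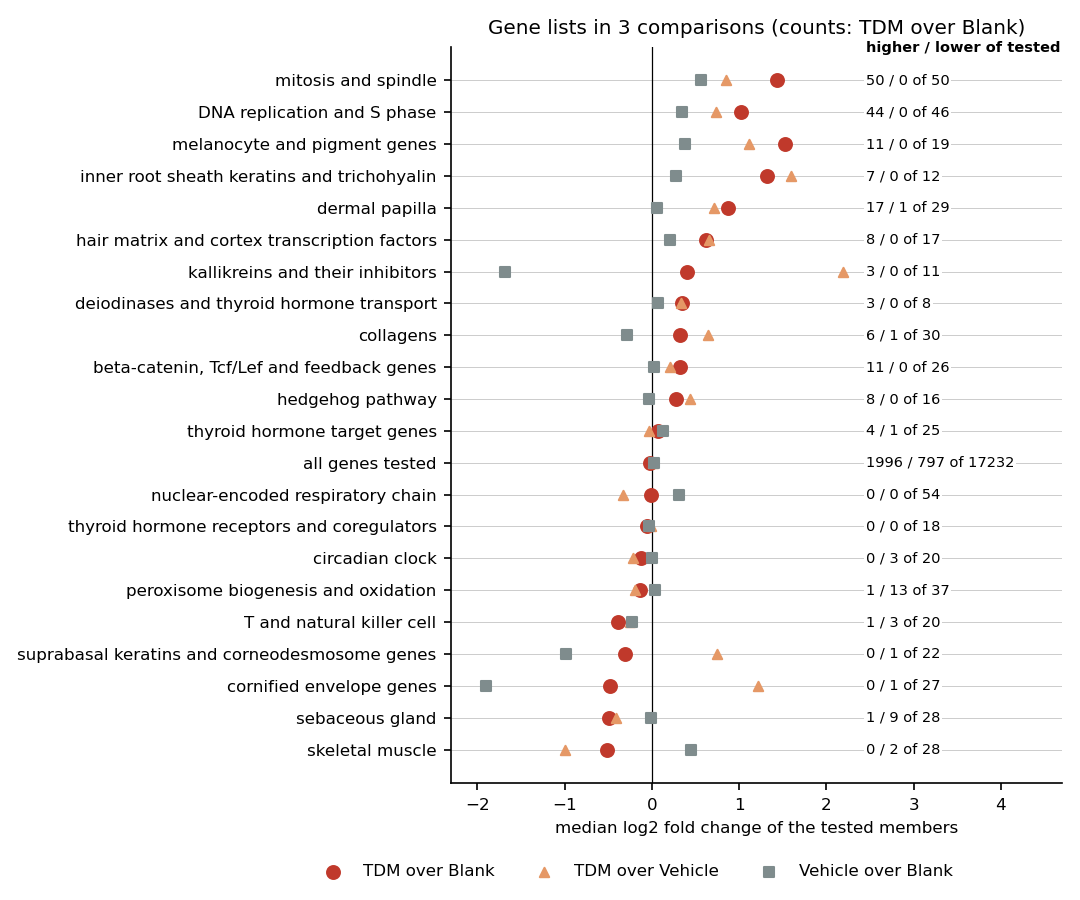
Median log2 fold change over the tested members of gene lists and over all genes tested, in 22 rows. Circles are TDM over Blank, triangles TDM over Vehicle and squares Vehicle over Blank, which share libraries. The figures at the right count members called higher and lower in TDM than in Blank skin. Examples are 50 of 50 higher in mitosis and 9 of 28 lower in the sebaceous gland.

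Signals of the growing follicle were higher, with wide spread among TDM libraries. In the hedgehog pathway 8 of 16 tested genes rose and the other 8 did not pass, with a median log2 fold change of 0.28. Shh, the ligand made by the hair germ and matrix, had 6.76, 20.2 and 57.04 CPM in TDM skin, 0.113, 0.766 and 42.8 CPM in Vehicle skin and 0.122, 0.9 and 9.93 CPM in Blank skin (log2 fold change 3.77 ± 0.98 SE, adjusted p = 0.00848). From replicate 1 to 9, the TDM libraries had 20.2, 6.76, 40.6, 29.3, 57.0, 8.48, 55.4, 10.04 and 7.23 CPM. Blank replicate 4 stood at 9.93 CPM and every other Blank library at no more than 2.2 CPM. Without Blank replicate 4 the log2 fold change was 4.86 (adjusted p = 0.00176). Over Vehicle, where 1 library reached 42.8 CPM, the difference in Shh did not pass (log2 fold change 1.89 ± 0.89 SE, adjusted p = 0.119). Ptch1, the Shh receptor and itself a target, had 179.6, 228 and 340.5 CPM in TDM skin, 40.7, 58.3 and 237 CPM in Vehicle skin and 24.4, 59.5 and 163 CPM in Blank skin (log2 fold change 1.67 ± 0.37 SE, adjusted p = 0.00226). Gli1, a target and transcription factor of the pathway, had 71.3, 134 and 183 CPM in TDM skin, against 10.2, 19.6 and 68.9 CPM in Blank skin (log2 fold change 2.10 ± 0.48 SE, adjusted p = 0.00304). Gli2, the main activator, had 48.1, 65.5 and 76.4 CPM in TDM skin, against 16.3, 25.4 and 45.8 CPM in Blank skin (log2 fold change 1.28 ± 0.26 SE, adjusted p = 0.00113). Hhip, a decoy that binds the ligand, had 7.11, 11.9 and 18.3 CPM in TDM skin, against 1.92, 3.59 and 4.62 CPM in Blank skin (log2 fold change 1.80 ± 0.31 SE, adjusted p = 0.000299). All 9 TDM values exceeded all 9 Blank values for each of these 3 genes and for Ptch1.

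Of the Wnt ligands, 4 of 15 rose and 1 fell, a mixed picture with a median of 0.00 on the log2 scale. Wnt5a had 36.6, 49.1 and 79.2 CPM in TDM skin, against 20.3, 26.5 and 44.3 CPM in Blank skin (log2 fold change 0.96 ± 0.20 SE, adjusted p = 0.00158). Wnt5b had 9.54, 15.5 and 20.5 CPM in TDM skin, against 6.75, 8.34 and 16.5 CPM in Blank skin (log2 fold change 0.72 ± 0.16 SE, adjusted p = 0.00255). Both are ligands of the branch that acts largely without beta-catenin. Wnt10b, a ligand of the hair germ, had 7.99, 17.5 and 33.5 CPM in TDM skin, against 2.94, 6.17 and 11.1 CPM in Blank skin (log2 fold change 1.39 ± 0.35 SE, adjusted p = 0.00681). Wnt9a fell, with 7.47, 9.08 and 11.4 CPM in TDM skin, against 11.2, 12.6 and 14.9 CPM in Blank skin (log2 fold change -0.50 ± 0.11 SE, adjusted p = 0.00304). Among secreted agonists and inhibitors 4 of 17 rose and 2 fell, and 1 fell without TDM replicate 4 or 7 or Blank replicate 8. Rspo3, an R-spondin that raises Wnt receptor levels, had 8.45, 14 and 28 CPM in TDM skin, against 2.93, 3.17 and 6.23 CPM in Blank skin (log2 fold change 2.08 ± 0.33 SE, adjusted p = 0.000156). Rspo2 had 0.793, 2.03 and 3.52 CPM in TDM skin, against 0.0588, 0.306 and 1.56 CPM in Blank skin (log2 fold change 1.92 ± 0.43 SE, adjusted p = 0.00279). Wif1, an inhibitor that binds Wnt, rose too, with 14.2, 21.6 and 27.6 CPM in TDM skin, against 5.34, 7.59 and 11.6 CPM in Blank skin (log2 fold change 1.43 ± 0.22 SE, adjusted p = 0.00011). Dkk2, of a family of receptor antagonists, fell, with 7.82, 15.5 and 28.2 CPM in TDM skin, 9.27, 22.04 and 45.4 CPM in Vehicle skin and 19.6, 37.5 and 56.2 CPM in Blank skin (log2 fold change -1.29 ± 0.32 SE, adjusted p = 0.0057).

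Downstream, 11 of 26 genes of beta-catenin, its partners and feedback rose and the other 15 did not pass. That count was 4 without Blank replicate 3, 5 without TDM replicate 5 or Blank replicate 1 or 5, 6 without TDM replicate 1, and 7 without TDM replicate 3 or Blank replicate 6 or 8. Lef1, the DNA-binding partner of beta-catenin in the matrix, had 13.8, 21.8 and 45.9 CPM in TDM skin, against 3.48, 7.61 and 13.8 CPM in Blank skin (log2 fold change 1.68 ± 0.34 SE, adjusted p = 0.00117). Ctnnb1, which encodes beta-catenin, had 506, 535 and 615 CPM in TDM skin, against 331, 381 and 493 CPM in Blank skin (log2 fold change 0.51 ± 0.11 SE, adjusted p = 0.00198). Ccnd1, a cyclin, had 53.1, 66.2 and 88.05 CPM in TDM skin, against 27.98, 38.3 and 70.02 CPM in Blank skin (log2 fold change 0.69 ± 0.18 SE, adjusted p = 0.0102). Axin2, the usual feedback readout, did not pass, with 48.2, 63.6 and 75.7 CPM in TDM skin, against 39.3, 61.5 and 71.1 CPM in Blank skin (log2 fold change 0.14 ± 0.11 SE, adjusted p = 0.409). Nor did the stem cell receptor Lgr5, with 19.3, 26.9 and 35.6 CPM in TDM skin, against 12.96, 19.02 and 24.9 CPM in Blank skin (log2 fold change 0.47 ± 0.18 SE, adjusted p = 0.0761). Lgr5 passed without Blank replicate 4 (adjusted p = 0.0488) or Vehicle replicate 4 (adjusted p = 0.0416).

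Dermal papilla genes, which mark the fibroblast cluster that instructs the follicle, rose in 17 of 29 cases and fell in 1, with a median log2 fold change of 0.87. Rspo3, Wif1 and Hhip stand in that list too. Alx4, a homeobox factor, had 22.1, 44.02 and 61.01 CPM in TDM skin, 3.06, 5.06 and 34.2 CPM in Vehicle skin and 3.40, 4.63 and 21.01 CPM in Blank skin (log2 fold change 2.62 ± 0.46 SE, adjusted p = 0.00036). Blank replicate 4 was the one Blank library far above its group, at 21.01 CPM. Of 19 Notch pathway genes 4 rose (21.05%, against 11.6% of all tested genes), a count that was 2 without TDM replicate 3, 5 or 8 or Blank replicate 1, 2, 3, 6, 7 or 8. Among them the target Heyl had 13.7, 25.8 and 49.3 CPM in TDM skin, against 8.29, 11.2 and 12.6 CPM in Blank skin (log2 fold change 1.24 ± 0.26 SE, adjusted p = 0.00169). Hey2, another that rose, had 2.76, 3.48 and 7.01 CPM in TDM skin, against 1.58, 2.12 and 3.36 CPM in Blank skin (log2 fold change 1.0 ± 0.23 SE, adjusted p = 0.0037). Of the 31 genes of BMP, FGF and TGF-beta signalling known in the resting follicle, 2 rose and 4 fell (19.35% called, against 16.2% of all tested genes). Without 1 library these counts were as low as 1 and 0, the second without TDM replicate 5. Bmp7 had 67.3, 87.2 and 126 CPM in TDM skin, against 38.3, 49.3 and 72.6 CPM in Blank skin (log2 fold change 0.84 ± 0.20 SE, adjusted p = 0.00394). Bmp4 had 23.7, 41.5 and 49.5 CPM in TDM skin, against 22.7, 31.4 and 40 CPM in Blank skin (adjusted p = 0.212). Fgf18, which holds follicles at rest, had 0.463, 1.05 and 3.78 CPM in TDM skin, against 0.796, 3.14 and 6.56 CPM in Blank skin and did not pass (log2 fold change -1.12 ± 0.44 SE, adjusted p = 0.0796). It did pass with DESeq2 (adjusted p = 0.0450) and limma voom (adjusted p = 0.0366). Tgfb2 (log2 fold change -0.38, adjusted p = 0.0279), the BMP antagonist Chrd (-0.42, adjusted p = 0.0419) and the transcription factor Foxp1 (-0.26, adjusted p = 0.0301) fell by less. The Tgfb2 call was lost without TDM replicate 5 or 7 or Blank replicate 6 or 9, with adjusted p-values up to 0.0607. That of Chrd was lost in 10 of the 27 fits that left out 1 library, without TDM replicate 1, 3, 4, 5, 6 or 7 or Blank replicate 6, 7, 8 or 9 (up to 0.0915). That of Foxp1 was lost in 8, without TDM replicate 3, 4, 5, 7 or 8 or Blank replicate 1, 6 or 8 (up to 0.0665). Fgf18 passed without TDM replicate 2 (adjusted p = 0.0247) or Blank replicate 2 (adjusted p = 0.0473).

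Products of the growing follicle rose as well. Of 17 inner root sheath genes 12 were tested, of which 7 rose and the other 5 did not pass, with a median log2 fold change of 1.32. Some, such as Krt73, were near 0 in Blank skin and entered the test through libraries where they were high. The count and the median are therefore a description only. In a fit of the TDM and Blank libraries alone 4 were called higher. The summed level of the list was 567 to 858.9 CPM in TDM and 461.9 to 735.6 CPM in Blank libraries. Krt73, a keratin of the inner root sheath cuticle, had 1.41, 14.8 and 85.8 CPM in TDM skin, 0, 0.18 and 17.5 CPM in Vehicle skin and 0, 0.117 and 0.289 CPM in Blank skin (log2 fold change 7.43 ± 1.22 SE, adjusted p = 0.000215). Zero reads were counted in 3 Blank libraries, so the fitted fold change rests on few Blank reads, and TDM replicate 5 alone reached 85.8 CPM. Krt25 had 0.282, 5.12 and 30.2 CPM in TDM skin, against 0, 0.0612 and 0.314 CPM in Blank skin (log2 fold change 5.98 ± 1.06 SE, adjusted p = 0.00036). Krt28 had 4.40, 20.2 and 97.9 CPM in TDM skin, against 0.366, 0.972 and 3.29 CPM in Blank skin (log2 fold change 4.52 ± 0.85 SE, adjusted p = 0.000569). Krt27 had 0.338, 2.89 and 13.4 CPM in TDM skin, against 0, 0.299 and 0.808 CPM in Blank skin (log2 fold change 3.51 ± 0.67 SE, adjusted p = 0.000647). Krt25, Krt28 and Krt27 are type I keratins of the same sheath with similar sequences. TDM replicate 5 was the highest TDM library for each of these and for Krt73. Without it the log2 fold changes of Krt73, Krt25 and Krt27 were 6.77, 5.24 and 2.82. In the cortex and matrix, Krt35, an early hair shaft keratin, had 1.80, 16.8 and 61.2 CPM in TDM skin, against 0.122, 0.6 and 5.95 CPM in Blank skin (log2 fold change 3.88 ± 0.92 SE, adjusted p = 0.00419). Without Blank replicate 4 the log2 fold change of Krt35 was 4.67. Of 17 matrix and cortex transcription factors 8 rose, and 5 without TDM replicate 7 or Blank replicate 3 or 8. Foxe1, a forkhead factor, had 0.789, 3.91 and 10.3 CPM in TDM skin, against 0.0609, 0.251 and 0.911 CPM in Blank skin (log2 fold change 3.51 ± 0.64 SE, adjusted p = 0.000491). Msx2, a homeobox factor of the matrix, had 5.13, 13.4 and 38.1 CPM in TDM skin, against 1.58, 2.32 and 10.04 CPM in Blank skin (log2 fold change 2.23 ± 0.53 SE, adjusted p = 0.00417). Dlx1 had 0.851, 2.69 and 7.93 CPM in TDM skin, against 0.117, 0.425 and 1.39 CPM in Blank skin (log2 fold change 2.65 ± 0.63 SE, adjusted p = 0.00422). Late hair shaft genes were at low levels: of 25 hair shaft keratins and keratin-associated proteins found, 7 were tested and Krt35 was the one called. Of 26 bulge and hair germ genes 5 rose (19.23%, against 11.6% of all tested genes), and 3 without TDM replicate 7 or Blank replicate 3 or 5. Among them was Lhx2, a homeobox factor of the hair germ, with 69.7, 126 and 223 CPM in TDM skin, 17.6, 37.9 and 226 CPM in Vehicle skin and 24.7, 42.3 and 101 CPM in Blank skin (log2 fold change 1.57 ± 0.40 SE, adjusted p = 0.00759). Cdh3, P-cadherin, also rose, with 35.5, 68.4 and 118 CPM in TDM skin, against 21.98, 29.9 and 47.04 CPM in Blank skin (log2 fold change 1.03 ± 0.26 SE, adjusted p = 0.00634).

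Pigment genes rose in 11 of 19 cases, and the other 8 did not pass, with a median log2 fold change of 1.52. Tyrp1, an enzyme of melanin synthesis, had 31.4, 82.5 and 147 CPM in TDM skin, 5.46, 17.8 and 98.3 CPM in Vehicle skin and 15.5, 22.6 and 44.8 CPM in Blank skin (log2 fold change 1.83 ± 0.40 SE, adjusted p = 0.00231). Slc45a2, a transporter of the pigment granule, had 2.59, 6.97 and 13.3 CPM in TDM skin, against 0.353, 0.938 and 3.98 CPM in Blank skin (log2 fold change 2.52 ± 0.53 SE, adjusted p = 0.00155). Slc24a5, another, had 1.52, 3.61 and 9.31 CPM in TDM skin, against 0.47, 0.735 and 2.60 CPM in Blank skin (log2 fold change 2.15 ± 0.53 SE, adjusted p = 0.00577). Trpm1, a channel of melanocytes, had 7.38, 18.9 and 50.3 CPM in TDM skin, against 1.998, 4.52 and 12.8 CPM in Blank skin (log2 fold change 2.15 ± 0.53 SE, adjusted p = 0.0054). In all 4 genes the highest Blank library lay above the lowest TDM library, and for Tyrp1, Slc45a2 and Slc24a5 it was replicate 4.

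Leaving out TDM replicate 7 and Blank replicates 3, 6 and 8 together reduced the members called higher to 3 of 16 in the hedgehog list, 2 of 26 in the beta-catenin list, 2 of 17 among matrix factors and 1 of 19 among pigment genes, while 49 of 50 mitosis and 40 of 46 replication genes were still called. That fit has 4 fewer libraries and 1069 calls in all, and Shh then had a log2 fold change of 3.07 (adjusted p = 0.116).

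**Figure D4:**
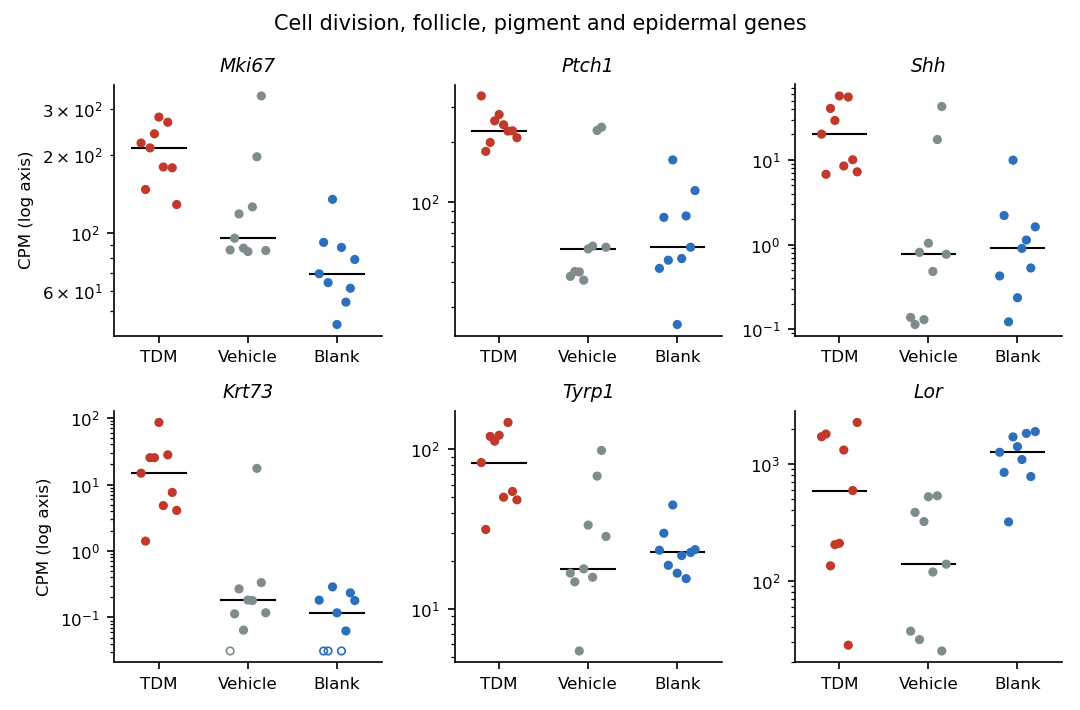
CPM (log axis) of 6 genes in each library, as points in order of replicate number within TDM, Vehicle and Blank, with a bar at each group's median and open points for libraries with 0 reads. Mki67 and Ptch1 are high in nearly all TDM libraries, Shh, Krt73 and Tyrp1 are high but scattered there, and Lor falls into high and low libraries within TDM.

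Among sebaceous gland genes more fell than rose. Of 28 tested sebaceous gland genes 9 fell and 1 rose, with a median log2 fold change of -0.49 and -0.42 over Vehicle. Scd3, a desaturase that makes monounsaturated fatty acids in the gland, had 25.8, 80.1 and 144 CPM in TDM skin, 207, 434 and 793 CPM in Vehicle skin and 348, 646 and 803 CPM in Blank skin (log2 fold change -2.83 ± 0.30 SE, adjusted p = 1.06e-06). Scd1, its close copy, had 7477, 8475 and 11200 CPM in TDM skin, against 4195, 6520 and 11420 CPM in Blank skin and did not pass (log2 fold change 0.31 ± 0.19 SE, adjusted p = 0.286). Reads may be shared between the 2 genes, and the difference between their changes was not tested. Per length, Scd1 averaged 1800 ± 262 FPKM in TDM and 1461 ± 461.8 FPKM in Blank skin, and Scd3 23.3 ± 11.5 FPKM in TDM and 166.7 ± 44.4 FPKM in Blank skin (SD, n = 9 each). Mc5r, the melanocortin receptor of sebocytes, had 4.83, 6.08 and 6.61 CPM in TDM skin, 10.1, 16.6 and 26.7 CPM in Vehicle skin and 11.6, 17.2 and 23.8 CPM in Blank skin (log2 fold change -1.57 ± 0.16 SE, adjusted p = 3e-07). The range in TDM skin was tight and low. Elovl3, a fatty acid elongase of the gland, had 12.2, 16.9 and 34.2 CPM in TDM skin, against 28.3, 66.04 and 123 CPM in Blank skin (log2 fold change -1.73 ± 0.26 SE, adjusted p = 7.89e-05). Summed over the list, where Scd1 makes up most of the reads, sebaceous transcripts were 10910 to 15110 CPM in TDM, 7976 to 15020 CPM in Vehicle and 7819 to 17750 CPM in Blank libraries.

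Fatty acid lists held calls in both directions. Of 20 tested desaturases and elongases 6 fell and 3 rose (45% called), with a median log2 fold change of -0.21. Of 29 genes of cholesterol and fatty acid synthesis 2 fell and 3 rose (17.24% called), with a median of -0.01. Over all tested genes 16.2% were called, so the count of the synthesis list was near that share. Single enzymes with small p-values fell. Acsm3, a medium-chain acyl-CoA synthetase, had 1.39, 2.68 and 5.06 CPM in TDM skin, against 8.14, 12.6 and 15.1 CPM in Blank skin (log2 fold change -2.0 ± 0.27 SE, adjusted p = 3.03e-05). Hacd2, of the elongation cycle, had 45.3, 59.3 and 84.4 CPM in TDM skin, against 101, 193 and 230.4 CPM in Blank skin (log2 fold change -1.43 ± 0.17 SE, adjusted p = 8.02e-06). Acacb, an acetyl-CoA carboxylase, had 94.6, 120.3 and 182 CPM in TDM skin, against 171, 257 and 344 CPM in Blank skin (log2 fold change -0.94 ± 0.15 SE, adjusted p = 0.000147). Mgll, the lipase of monoglycerides, was abundant and had 298, 336 and 399 CPM in TDM skin, 537, 802 and 1301 CPM in Vehicle skin and 528, 956 and 1156 CPM in Blank skin (log2 fold change -1.34 ± 0.15 SE, adjusted p = 2.44e-06). Acot1, an acyl-CoA thioesterase with close copies beside it, had 26.3, 38.8 and 49.3 CPM in TDM skin, against 69.4, 84.9 and 124 CPM in Blank skin (log2 fold change -1.27 ± 0.14 SE, adjusted p = 2.31e-06). Echdc1, an enzyme that removes side products of fatty acid synthesis, had 13.9, 18.1 and 20.6 CPM in TDM skin, against 32.5, 55.2 and 64.5 CPM in Blank skin (log2 fold change -1.53 ± 0.18 SE, adjusted p = 7.44e-06). For all of these but Acacb the TDM and Blank ranges were apart. Cds1, a phospholipid synthase, fell (log2 fold change -1.19, adjusted p = 8.02e-06), as did the fatty acid transport protein Slc27a4 (-0.90, adjusted p = 0.000906) and Entpd5, a nucleoside diphosphatase of the endoplasmic reticulum (-0.63, adjusted p = 8.23e-07). Cyp2j12, a cytochrome P450, had 2.26, 5.69 and 7.76 CPM in TDM skin, against 10.9, 20.3 and 28.5 CPM in Blank skin (log2 fold change -1.97 ± 0.24 SE, adjusted p = 1.13e-05).

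Peroxisomes oxidise long and branched fatty acids, and 13 of their 37 genes fell while 1 rose. The median was -0.14 on the log2 scale, against -0.02 over all genes. Pxmp4, a peroxisomal membrane protein, had 75.1, 81.3 and 107 CPM in TDM skin, against 113, 173 and 236 CPM in Blank skin (log2 fold change -1.01 ± 0.13 SE, adjusted p = 1.81e-05). Acox3, an oxidase of branched chains, had 92.1, 119 and 149 CPM in TDM skin, against 151, 256 and 316 CPM in Blank skin (log2 fold change -1.07 ± 0.16 SE, adjusted p = 0.000107). Crat, carnitine acetyltransferase, had 144, 173 and 251 CPM in TDM skin, against 226, 312 and 369 CPM in Blank skin (log2 fold change -0.68 ± 0.12 SE, adjusted p = 0.000303). Cat, catalase, had 220.4, 288 and 342 CPM in TDM skin, against 328, 426 and 546 CPM in Blank skin (log2 fold change -0.61 ± 0.14 SE, adjusted p = 0.00271). In the steroid list of 14 genes, Cyp17a1 was 1 of 2 that rose and 4 fell. Hsd17b7, which acts in cholesterol and oestradiol synthesis, had 17.7, 23.7 and 34.6 CPM in TDM skin, against 28.8, 57.4 and 128 CPM in Blank skin (log2 fold change -1.37 ± 0.27 SE, adjusted p = 0.00096). Hsd17b2, which inactivates oestradiol and testosterone, had 2.37, 3.61 and 6.67 CPM in TDM skin, against 6.06, 13.1 and 20.7 CPM in Blank skin (log2 fold change -1.68 ± 0.30 SE, adjusted p = 0.000349). Of 24 retinoid genes 4 fell and 2 rose (25% called, against 16.2% of all tested genes). The count of falls was 1 without TDM replicate 1, 6 or 8 or Blank replicate 2, and 2 without TDM replicate 2, 5, 7 or 9 or Blank replicate 8. The count of rises was 1 without TDM replicate 1, 3, 4 or 6 or Blank replicate 1, 3, 5, 6 or 8. Among those that fell, Sdr16c5 had 4.51, 6.89 and 9.96 CPM in TDM skin, against 13.7, 22 and 26.6 CPM in Blank skin (log2 fold change -1.62 ± 0.20 SE, adjusted p = 8.77e-06). Rdh16 had 0.172, 0.549 and 0.79 CPM in TDM skin, against 0.857, 2.06 and 2.99 CPM in Blank skin (log2 fold change -1.98 ± 0.34 SE, adjusted p = 0.000303).

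Few cornified envelope and suprabasal genes passed the test against Blank, and the TDM libraries differed widely among themselves. Of 24 epidermal barrier lipid genes 5 fell (20.83%, against 4.63% of all tested genes) and 0 rose. That count was 2 without TDM replicate 4 or 8 and 3 without Blank replicate 7. Of 27 cornified envelope genes 1 fell and the other 26 did not pass, with a median log2 fold change of -0.48. The medians were 1.22 for TDM over Vehicle, with 12 members called higher (12% of all tested genes were), and -1.91 for Vehicle over Blank, with 13 called lower (1.86% of all tested genes were). Lor, which encodes the main envelope protein loricrin, had 28.1, 592 and 2264 CPM in TDM skin, 25.02, 138 and 533 CPM in Vehicle skin and 318, 1257 and 1890 CPM in Blank skin (log2 fold change -0.43 ± 0.64 SE, adjusted p = 0.698). From replicate 1 to 9, the TDM libraries had 1708, 1802, 134.1, 204, 209, 1314, 28.1, 592 and 2264 CPM of Lor, so replicates 3, 4, 5 and 7 were the lowest. Krt10, the keratin of suprabasal cells, had 241, 906 and 2037 CPM in TDM skin, 299.8, 459 and 958 CPM in Vehicle skin and 502, 1287 and 2292 CPM in Blank skin (log2 fold change -0.50 ± 0.39 SE, adjusted p = 0.416). TDM replicates 3, 4, 5 and 7 were again the lowest. Flg2, a filaggrin relative, had 18.6, 169 and 659 CPM in TDM skin, 15.6, 37.4 and 106 CPM in Vehicle skin and 57.8, 256 and 528 CPM in Blank skin (log2 fold change -0.25 ± 0.60 SE, adjusted p = 0.817). Krt1, the partner of Krt10, fell, with 175, 316 and 525 CPM in TDM skin, against 314, 526 and 903 CPM in Blank skin (log2 fold change -0.77 ± 0.24 SE, adjusted p = 0.0269). The Krt1 call was lost without TDM replicate 3, 4, 5 or 7 or Blank replicate 7 or 9, with adjusted p-values up to 0.0611. Krt5 had 1545, 1767 and 2358 CPM in TDM skin, against 1228, 2032 and 2735 CPM in Blank skin (log2 fold change -0.12 ± 0.18 SE, adjusted p = 0.707). Its partner Krt14 had 1231, 1529 and 2213 CPM in TDM skin, against 1239, 2063 and 2716 CPM in Blank skin (log2 fold change -0.31 ± 0.18 SE, adjusted p = 0.246). Both are keratins of basal cells.

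Skeletal muscle transcripts, as found in the thin muscle layer under dorsal skin, ran opposite to the cornified genes among the TDM libraries. From replicate 1 to 9, the TDM libraries had 29570, 23800, 52440, 51670, 37780, 34860, 59180, 23580 and 31500 CPM of muscle transcripts in sum, with replicates 3, 4, 5 and 7 the highest. With the muscle score of each library, the mean log2 CPM of the muscle list, as a covariate the log2 fold change of Lor was -2.27 (adjusted p = 0.0160), that of Krt10 -1.38 (adjusted p = 0.0070) and that of Flg2 -1.80 (adjusted p = 0.0427), and 20 of 27 cornified envelope genes were called lower. The part of muscle content in these values was otherwise not tested.

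Kallikrein proteases cut the bonds between dead surface cells. In the list of kallikreins and their inhibitors 3 of 11 tested genes rose (27.27%, against 11.6% of all tested genes). Besides Klk8, Klk9 had 11.7, 27.6 and 40.4 CPM in TDM skin, 3.83, 5.70 and 8.96 CPM in Vehicle skin and 7.38, 9.36 and 26.1 CPM in Blank skin (log2 fold change 1.18 ± 0.24 SE, adjusted p = 0.00121). Klk13 had 1.51, 5.50 and 18.3 CPM in TDM skin, 0.118, 0.468 and 1.06 CPM in Vehicle skin and 0.366, 0.857 and 7.49 CPM in Blank skin (log2 fold change 1.94 ± 0.54 SE, adjusted p = 0.0125). Blank replicate 9 held 7.49 CPM, and without it the log2 fold change of Klk13 was 2.63. Adjusting for the muscle score gave 1.003, and the call was lost (adjusted p = 0.107), and it was also lost without TDM replicate 7 and Blank replicates 3, 6 and 8 (adjusted p = 0.0858). The list's median was 0.40 for TDM over Blank, 2.19 over Vehicle and -1.68 for Vehicle over Blank. Krt17, a keratin of the follicle and of activated cells, had 499, 578 and 773 CPM in TDM skin, against 242, 388 and 589 CPM in Blank skin (log2 fold change 0.56 ± 0.19 SE, adjusted p = 0.0376). The Krt17 call was lost in 10 of the 27 fits, those without TDM replicate 1, 3, 5 or 7 or Blank replicate 1, 2, 3, 5, 6 or 8, with adjusted p-values up to 0.0876. A pair of wound-related transcripts fell chiefly through Blank replicate 9. Krt16 had 2.42, 5.62 and 12.8 CPM in TDM skin, against 5.71, 10.6 and 72.3 CPM in Blank skin (log2 fold change -1.50 ± 0.40 SE, adjusted p = 0.00932). Without that library its log2 fold change was -0.80 (adjusted p = 0.0420). Sprr2a1 had 0.243, 0.579 and 1.24 CPM in TDM skin, against 0.314, 0.9 and 27.6 CPM in Blank skin (log2 fold change -2.46 ± 0.74 SE, adjusted p = 0.0225), and its log2 fold change was -0.36 without it (adjusted p = 0.616).

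In the dermis, some matrix genes rose. Of 30 collagen genes 6 rose and 1 fell, with a median log2 fold change of 0.32. Over all tested genes 11.6% were higher and 4.63% lower. Col13a1, a transmembrane collagen, had 10.3, 13.1 and 21 CPM in TDM skin, against 4.17, 5.96 and 10.1 CPM in Blank skin (log2 fold change 1.20 ± 0.18 SE, adjusted p = 8.94e-05). Col11a1, a fibril collagen of cartilage also seen in the follicle sheath, had 13.7, 17.7 and 25.01 CPM in TDM skin, 0.269, 2.62 and 15.3 CPM in Vehicle skin and 3.05, 4.19 and 8.37 CPM in Blank skin (log2 fold change 2.0 ± 0.40 SE, adjusted p = 0.00102). Col27a1 had 27.4, 39.7 and 69.9 CPM in TDM skin, against 13.98, 20.7 and 28.4 CPM in Blank skin (log2 fold change 1.04 ± 0.21 SE, adjusted p = 0.00112). Of 28 genes of dermal proteoglycans and elastic fibres, 2 rose, a smaller share than the 11.6% of all genes, with a median log2 fold change of -0.08, and 1 rose without TDM replicate 8 or Blank replicate 1, 3 or 5. They were Fbn2 and Vcan. Fbn2, a microfibril protein of developing tissue, had 8.69, 19.3 and 28.9 CPM in TDM skin, against 1.998, 3.59 and 14.6 CPM in Blank skin (log2 fold change 1.95 ± 0.40 SE, adjusted p = 0.00121). Vcan, versican, a proteoglycan of the dermal papilla, had 32.8, 86.7 and 130.3 CPM in TDM skin, against 26.6, 38.1 and 68 CPM in Blank skin (log2 fold change 0.99 ± 0.30 SE, adjusted p = 0.026). The Vcan call was lost without TDM replicate 8 or Blank replicate 1, 3 or 5, with adjusted p-values up to 0.0588. Matrix metalloproteinases and their inhibitors rose in 4 of 23 cases (17.39%, against 11.6% of all tested genes), with a median log2 fold change of -0.07. Adamts18 and Adamts15 are secreted proteases of the matrix. Adamts18 had 4.74, 9.51 and 18.7 CPM in TDM skin, against 0.235, 1.03 and 2.37 CPM in Blank skin (log2 fold change 3.20 ± 0.56 SE, adjusted p = 0.000339). Adamts15 had 50.3, 60.5 and 98.1 CPM in TDM skin, against 11.3, 20.1 and 34.5 CPM in Blank skin (log2 fold change 1.64 ± 0.30 SE, adjusted p = 0.000541). TDM replicate 7, low in collagens as a sum, was the highest TDM library for Col27a1.

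Of 28 tested muscle genes 2 fell (7.14%, against 4.63% of all tested genes) and the other 26 did not pass. There were 1 to 4 falls in the fits without 1 library, and the median log2 fold change was -0.51. At an unadjusted p under 0.05, 15 were lower and 1 higher. DESeq2 called 3 lower, and limma voom 24 lower and 1 higher (2362 of all 17232 tested genes were lower by voom). Over Vehicle, 24 muscle genes were called lower (11.7% of all tested genes were), with a median of -0.99. The summed level was 23580 to 59180 CPM in TDM, 33370 to 114200 CPM in Vehicle and 34610 to 84940 CPM in Blank libraries. The muscle score was 8.99 ± 0.433 in TDM, 9.84 ± 0.54 in Vehicle and 9.47 ± 0.438 in Blank libraries (mean log2 CPM, SD, n = 9 each). Myh2, a fast myosin, had 104, 199 and 355 CPM in TDM skin, against 223, 368 and 978 CPM in Blank skin (log2 fold change -1.07 ± 0.28 SE, adjusted p = 0.00848). With the muscle score as a covariate it no longer passed (adjusted p = 0.0655). Tnni1, a slow troponin, had 0.121, 0.564 and 1.10 CPM in TDM skin, against 0.304, 0.693 and 12.9 CPM in Blank skin (log2 fold change -2.09 ± 0.63 SE, adjusted p = 0.0235). The Tnni1 call was lost without Blank replicate 3 (log2 fold change -1.03, adjusted p = 0.180) and stood at the threshold without Blank replicate 7 (adjusted p = 0.0505). Nuclear-encoded respiratory chain genes had a median of -0.01, and edgeR called 0 of 54, with 1 higher and 2 lower at an unadjusted p under 0.05, 0 by DESeq2, and 1 higher and 11 lower by limma voom.

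Some of the largest falls rested on low or uneven levels. Slc12a1, a salt cotransporter of the kidney, had 0, 0.183 and 0.564 CPM in TDM skin, 0, 1.77 and 8.42 CPM in Vehicle skin and 0.911, 1.70 and 3.29 CPM in Blank skin (log2 fold change -3.06 ± 0.64 SE, adjusted p = 0.00145). Each TDM library lay below each Blank library. Serpinb6d had 0.29, 1.67 and 3.52 CPM in TDM skin, against 1.71, 9.05 and 15.5 CPM in Blank skin (log2 fold change -2.20 ± 0.38 SE, adjusted p = 0.000293). Cyp2b23 had 0.0575, 0.851 and 5.16 CPM in TDM skin, against 1.47, 6.60 and 19.7 CPM in Blank skin (log2 fold change -2.32 ± 0.70 SE, adjusted p = 0.0215). Krt18, a keratin of simple epithelia, had 0.183, 0.463 and 1.98 CPM in TDM skin, against 0.3, 1.25 and 16.6 CPM in Blank skin (log2 fold change -2.97 ± 0.85 SE, adjusted p = 0.016). For 4 more genes the call was lost without a single Blank library. Mup7, a major urinary protein, had 0.061, 0.338 and 2.99 CPM in TDM skin, against 0.122, 0.882 and 174 CPM in Blank skin (log2 fold change -4.67 ± 1.55 SE, adjusted p = 0.0385). The 173.8 CPM was in Blank replicate 6, without which the log2 fold change was -1.16 (adjusted p = 0.598). Its call was also lost without TDM replicate 1, 2, 3, 5, 6, 8 or 9, with adjusted p-values up to 0.0665. Without Blank replicate 3, Actc1, the cardiac actin, had an adjusted p of 0.143 and Myh3, the embryonic myosin, of 0.169, against log2 fold changes of -2.73 and -3.07 with it (adjusted p = 0.00776 and 0.0103). Without Blank replicate 8, Muc2, an intestinal mucin, had a log2 fold change of -1.54 (adjusted p = 0.197), against -2.84 with it (adjusted p = 0.0274).

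**Figure D5:**
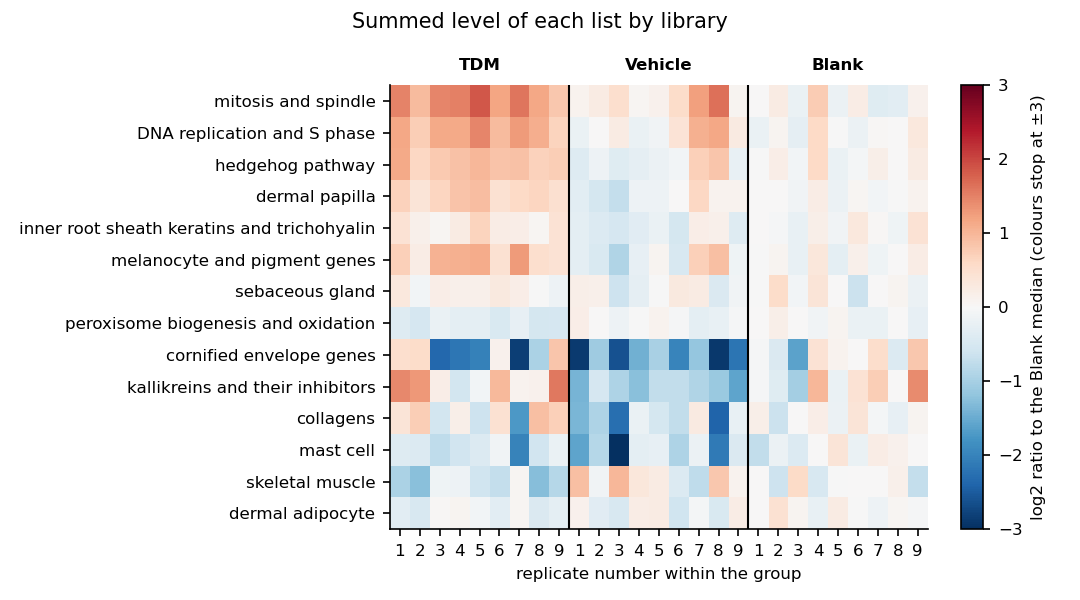
Summed CPM of 14 gene lists in each of the 27 libraries, as the log2 ratio to the median of the Blank libraries, with columns in order of replicate number within TDM, Vehicle and Blank and colours that stop at ±3. The mitosis, replication and hedgehog rows are raised in all 9 TDM columns, while the cornified envelope row is low in TDM replicates 3, 4, 5 and 7, and the collagen and mast cell rows are low in TDM replicate 7.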

How the data were processed

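Bulk RNA from dorsal skin was sequenced in 27 libraries, 9 each of TDM, Vehicle and Blank, prepared with an Illumina TruSeq RNA kit per the labels' protocols, whose extraction text speaks of retina. The deposited table holds whole-number read counts per gene, not normalized per the file headers, for 54532 genes in 27 mapped libraries, with all count columns assigned by name. FPKM values stand beside them in the deposited table. They were used for levels per length, with no test. Any deposited fold changes and p-values were not used. Bowtie 0.12.2 and the mm9 build are named in the submitters' processing notes without a role, with no word on how reads were counted. Of the gene identifiers 54495 were found in GENCODE M21 (GRCm38), and 98.17% of these had the same coordinates as the table, so coordinates are given on GRCm38.

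Counts were scaled by TMM and tested with edgeR 4.0.16 (R 4.3.3) by its robust quasi-likelihood test in 1 fit of all 27 libraries, with group as the only term. filterByExpr (minimum count 10, minimum total 15) left 17232 genes, which held 99.86% of reads. A gene was called where its p, adjusted by Benjamini and Hochberg over all tested genes, was under 0.05, and SE is the log2 fold change divided by the square root of F. TDM over Vehicle and Vehicle over Blank came from the same fit. Depth and group size limit what low genes can show, and intervals and p-values do not cover batches, since the labels give none. Replicates of a group differed beyond sampling noise in all 108 pairs.

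The groups, genes and lists were chosen with earlier results of these data known. By rule, named genes were the called genes with the largest and smallest changes and the smallest p-values at a mean of at least 1 CPM, the called members of smallest p in each list, and genes of thyroid hormone action and the follicle. C130079G13Rik, Ncapd2 and Spc25 were added after their values were seen, and some genes under the rule are not reported here. Krt85, Asip, Sts, Cldn25 and Trgv5 were not analysed here. Alternatives were DESeq2 1.42.0, limma 3.58.1 (voom), other scalings and filters, TDM and Blank libraries alone, a replicate block, a fold threshold of 1.5, a muscle covariate and each library left out. Promoters came from RefSeq (GRCm38.p6).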

Additional observations from a re-analysis of the deposited data

Results flagged for a closer look

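Among 260 groups of 9 values, 38 held a library set apart from the rest of its group by Dixon's test at the 95% level. Each of the 38 was the highest of its group. A rate of about 1 in 20 by chance assumes normally distributed values, which was not tested. The genes were also chosen and partly move together, so the 38 are not set against that rate. Of these 16 were Blank replicate 4, each as the highest Blank library. They were Shh (9.928 CPM), Alx4 (21.01), Lhx2 (101.1), Msx2 (10.04), Krt35 (5.945), Dlx1 (1.385), Wnt5a (44.33), Wnt5b (16.51), Fbn2 (14.6), Tyrp1 (44.79), Slc45a2 (3.983), Slc24a5 (2.597), Mcm7 (61.18), Slc7a5 (63.15), Dbh (0.404) and Elovl3 (122.9). All of these but Elovl3 were called higher in TDM skin, which makes 15 of the 16. For any gene called higher, a highest Blank value lies toward the TDM side by definition, so this count is a description only.

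TDM replicate 5 was the highest TDM library for the inner root sheath keratins Krt73 (85.82 CPM), Krt25 (30.23), Krt28 (97.87) and Krt27 (13.44) and for Foxe1 (10.31). Blank replicate 9 was the highest Blank library for Klk9 (26.11 CPM), Klk13 (7.486), Krt16 (72.34) and Sprr2a1 (27.61). Blank replicate 3 was the highest for the muscle genes Actc1 (126.8 CPM), Myh3 (21.21) and Tnni1 (12.86). Blank replicate 6 was the highest for Mup7 (173.8 CPM) and Hey2 (3.359), and Blank replicate 8 for Muc2 (23.23 CPM). Single values set apart were Pxmp4 (107.2 CPM) and Krt18 (1.976) in TDM replicate 3, Myh3 (1.098) in TDM replicate 6, Col27a1 (69.92) in TDM replicate 7, Cyp2b23 (5.164) in TDM replicate 9, Col13a1 (10.1) in Blank replicate 2 and Hr (444.6) in Blank replicate 1, each the highest of its group.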

How the results depend on the processing

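Limits: the design has no batch label, solvent and compound differ together between TDM and Blank, and genes with few reads, such as the root sheath keratins in Blank skin, have fold changes that rest on those few reads. With limma voom, 5261 genes were called and 2362 were lower, and with TDM and Blank libraries alone 1350 were lower. Testing for a fold of at least 1.5 left 299 calls, 254 higher and 45 lower. Without TDM replicate 7 and Blank replicates 3, 6 and 8, a set chosen after seeing the data, 1069 genes were called, 738 higher and 331 lower. Without TDM replicate 5 and Blank replicate 4, also chosen after seeing the data, 2542 were called, and 825 genes had TDM and Blank values that did not overlap. The causes of these shifts were not tested, apart from the stricter threshold and the smaller number of libraries that the settings themselves bring. Leaving out 1 library at a time gave 2307 to 3073 called genes, 1559 to 2167 higher, 584 to 1068 lower, and 382 to 798 genes whose groups did not overlap. DESeq2 (3232), RLE scaling (2767), upper quartile scaling (2697), no filter (2113), a mean of at least 1 CPM (2769) and the muscle covariate (3210) kept the number of calls within 1.5 times. Deviations of same-numbered libraries from their group means had correlations of -0.399 to 0.382 over 27 pairs. Pairs of unlike number were not set beside them, so whether the numbers pair libraries remains unknown. The replicate block gave 2621 calls. Of 130 genes named, 117 were called, and 102 of these were called in each of the 27 fits without 1 library. Calls among them were lost for 5 with DESeq2, 8 with voom, 11 with no filter, 7 with the replicate block, 53 at a fold of 1.5, 12 with the muscle covariate, 34 without the 4 libraries named and 9 without TDM replicate 5 and Blank replicate 4. Krt73 had a log2 fold change of 6.09 with voom, Krt25 4.44, Krt28 3.56, Foxe1 2.77 and Msantd1 2.65. The log2 fold change of Krt18 was -2.35 with the replicate block and -1.62 with voom, where its call was lost (adjusted p = 0.0986), and without the 4 libraries named that of Ighg1 was 5.54.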

Other observations

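The circadian clock list held 20 tested genes, of which 3 fell in TDM skin (15%, against 4.63% of all tested genes) and the other 17 did not pass. Their median log2 fold change was -0.13, against -0.02 over all genes. Rora, a nuclear receptor that activates the clock gene Bmal1, had 81.8, 89.1 and 139 CPM in TDM skin, 88.6, 140 and 167 CPM in Vehicle skin and 129, 158 and 172 CPM in Blank skin (log2 fold change -0.62 ± 0.11 SE, adjusted p = 0.000426). Nfil3, a repressor in the same circuit, had 11.9, 14.9 and 19.3 CPM in TDM skin, against 19.1, 22.7 and 27.5 CPM in Blank skin (log2 fold change -0.59 ± 0.13 SE, adjusted p = 0.00187).

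Of 20 tested T and natural killer cell genes 3 fell and 1 rose (20% called, against 16.2% of all tested genes), with a median log2 fold change of -0.38. Trdc, the constant region of the delta chain of the T cell receptor carried by epidermal T cells, had 3.85, 6.92 and 8.74 CPM in TDM skin, 5.39, 8.82 and 14.96 CPM in Vehicle skin and 7.96, 11.6 and 14.3 CPM in Blank skin (log2 fold change -0.77 ± 0.18 SE, adjusted p = 0.00394). Cd3e, a signalling chain of the receptor, fell as well (log2 fold change -0.74 ± 0.24 SE, adjusted p = 0.031), but the call was lost without TDM replicate 1, 4, 5 or 7 or Blank replicate 2 or 5, with adjusted p-values up to 0.0595. The 1 call of a rise was lost without TDM replicate 8. In the dermal adipocyte list 2 of 25 genes fell (8%, against 4.63% of all tested genes), with 1 to 3 in the fits without 1 library, and the median was -0.11. Car3, an abundant carbonic anhydrase of fat and muscle, had 2166, 3383 and 4654 CPM in TDM skin, 3222, 6270 and 7629 CPM in Vehicle skin and 4050, 5080 and 6273 CPM in Blank skin (log2 fold change -0.63 ± 0.17 SE, adjusted p = 0.0132).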
